A study of Homo sapiens with 12 samples.

Results

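The integrated stress response genes described here are 10 human transcripts: those of the transcription factors ATF4, DDIT3 and CEBPB, the phosphatase subunit PPP1R15A, the pseudokinase TRIB3, the growth regulators SESN2 and DDIT4, and the amino acid and glutathione genes ASNS, SLC7A11 and CHAC1. They were chosen by a list of transcript identifiers, drawn up with earlier results of these data known, and are 10 of the 100283 coding transcripts in the monosome tables. The cells were HEK293T Flp-In, an established human embryonic kidney line with a site for inserting transgenes, labelled wild type in every library. For 2 h they received girolline, a compound first isolated from sponges, at 1 or 10 µM, or its solvent DMSO. RNA-seq of poly(A) RNA, monosome footprints (fragments shielded by a lone ribosome) and disome footprints (longer fragments shielded by a pair of adjoining ribosomes) were each sequenced in 4 libraries, 2 of them with DMSO and 1 for each dose.

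RNA-seq libraries held 28424272 to 42194871 counts, monosome libraries 21570489 to 38074691, and disome libraries, the shallowest, 3091715 to 5769026. Levels are given as CPM, counts scaled by a library's total. Changes are log2 fold changes ± SE from edgeR's quasi-likelihood test, with p-values adjusted by Benjamini-Hochberg over all transcripts tested and a threshold of 0.05. Each dose had a single library, which the test assumes to vary like the DMSO pair, and no label says whether separate cultures gave the DMSO pair, so the p-values reflect the spread of these samples alone, which may be technical. In bulk libraries fewer cells with a transcript and less of it per cell cannot be told apart.

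The integrated stress response starts when a stress kinase phosphorylates the translation factor eIF2 on its alpha subunit. Initiation then falls at most mRNAs, while a few mRNAs with short upstream reading frames, among them those of ATF4, DDIT3 and PPP1R15A, are translated better. ATF4 then raises transcription of genes for amino acid supply, redox balance and recovery, and PPP1R15A brings a phosphatase back to eIF2 and ends the response.

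ATF4 and its partner C/EBP factors bind the C/EBP-ATF response element, searched here as TGATGNAA on both strands in RefSeq promoter windows on GRCh38.p14. Of 9 genes with a window, ASNS and CHAC1 held a match, and 1270 of all 35116 windows (3.62%) did. Both matches found among the members are shown, and the letters in capitals mark the match. Members were counted by gene and the background by window, so these figures are not alike. The ASNS stretch is chr7:97872449-97872496 on the minus strand, with its match 68 bases before the transcript start of that window. RefSeq lists more than 1 window for ASNS, and this start lies inside the gene span given below. The CHAC1 stretch is chr15:40953242-40953289 on the plus strand, with the match on the opposite strand and 209 bases before the start. A match describes the letters and is no evidence of binding.
ASNS promoter: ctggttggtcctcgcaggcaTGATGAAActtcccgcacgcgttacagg
CHAC1 promoter: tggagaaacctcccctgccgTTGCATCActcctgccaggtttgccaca

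With DMSO, mRNA level per length differed widely among the 10 genes. ATF4 was at a mean of 285 RPKM, counts scaled by coding length and library total, followed by ASNS at 40.5 RPKM. DDIT4, DDIT3, SESN2, TRIB3 and PPP1R15A came next, from 10.7 down to 5.59 RPKM, and neighbours in that order had overlapping DMSO values. SLC7A11, CEBPB and CHAC1 were lowest, at 2.78, 2.13 and 1.61 RPKM, again with overlap between neighbours.

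Footprints per mRNA followed another order. The ratio of monosome to RNA-seq RPKM was 0.029 for ATF4, 0.0414 for DDIT3 and 0.141 for PPP1R15A in DMSO. Upstream reading frames were not examined here for any member, so a link between them and this ratio was not tested. Among 37032 ranked transcripts, whose median ratio was 0.677, ATF4 stood at percentile 0.0675, DDIT3 at 0.194 and PPP1R15A at 4.4. For number-matched DMSO libraries, the ratio was 0.0303 and 0.0277 for ATF4, 0.0334 and 0.0512 for DDIT3, and 0.0991 and 0.194 for PPP1R15A, so these 3 did not overlap. The DDIT3 ratios rest on monosome counts of only 4 and 6, so its percentile and its order beside ATF4 are uncertain. TRIB3 followed at 0.417, and SESN2 and CHAC1 at 0.743 each lay near SLC7A11 at 0.968, with overlapping DMSO values. ASNS at 1.54, DDIT4 at 1.83 and CEBPB at 2.38 were highest, and each overlapped its neighbour. The 2 kinds of table count slightly different parts of the coding region, so the ratios set unlike regions side by side.

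**Figure D1:**
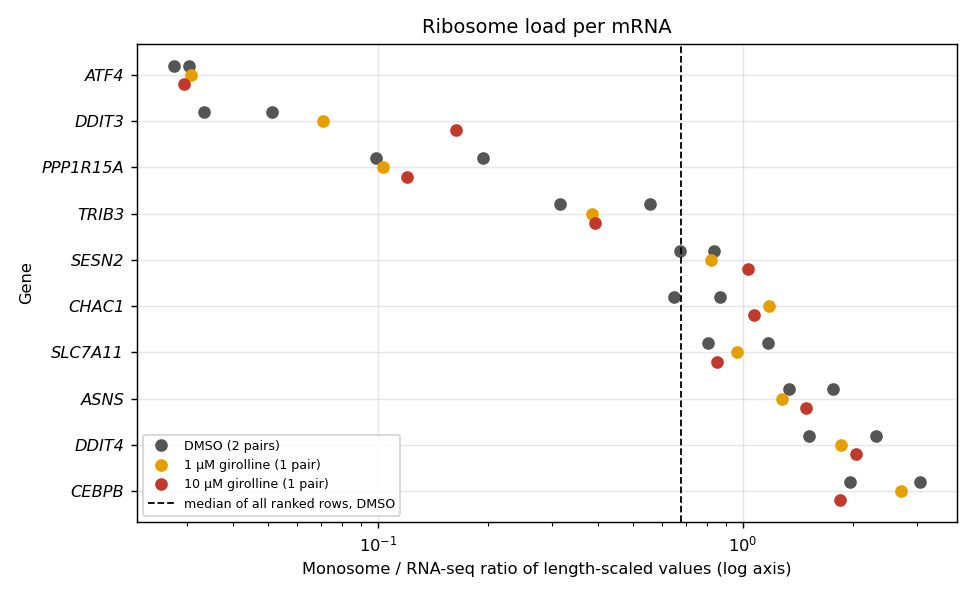
Ratio of monosome to RNA-seq RPKM (log axis) for the 10 genes in the DMSO, 1 µM and 10 µM libraries; each point is the ratio of 1 monosome to 1 RNA-seq library, DMSO libraries matched by number, and the dashed line is the DMSO median of all ranked transcripts. ATF4 stays between 0.0277 and 0.0307, while DDIT3 goes from 0.0334 and 0.0512 with DMSO to 0.164 at 10 µM.

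Gene coordinates below are those of RefSeq on GRCh38.p14. The dose comparisons asked whether girolline altered these genes' mRNAs within 2 h. At 10 µM PPP1R15A mRNA rose, CHAC1 mRNA fell and the other 8 mRNAs did not pass the test. This count of 2 of 10 stands beside 1.11% called among 56229 transcripts tested (0.537% higher, 0.571% lower). The members' median log2 change was -0.16, against -0.01 over all transcripts tested. At 1 µM no member was called by edgeR, none had an unadjusted p under 0.05, DESeq2 called none, and 0% of transcripts were called by edgeR.

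**Figure D2:**
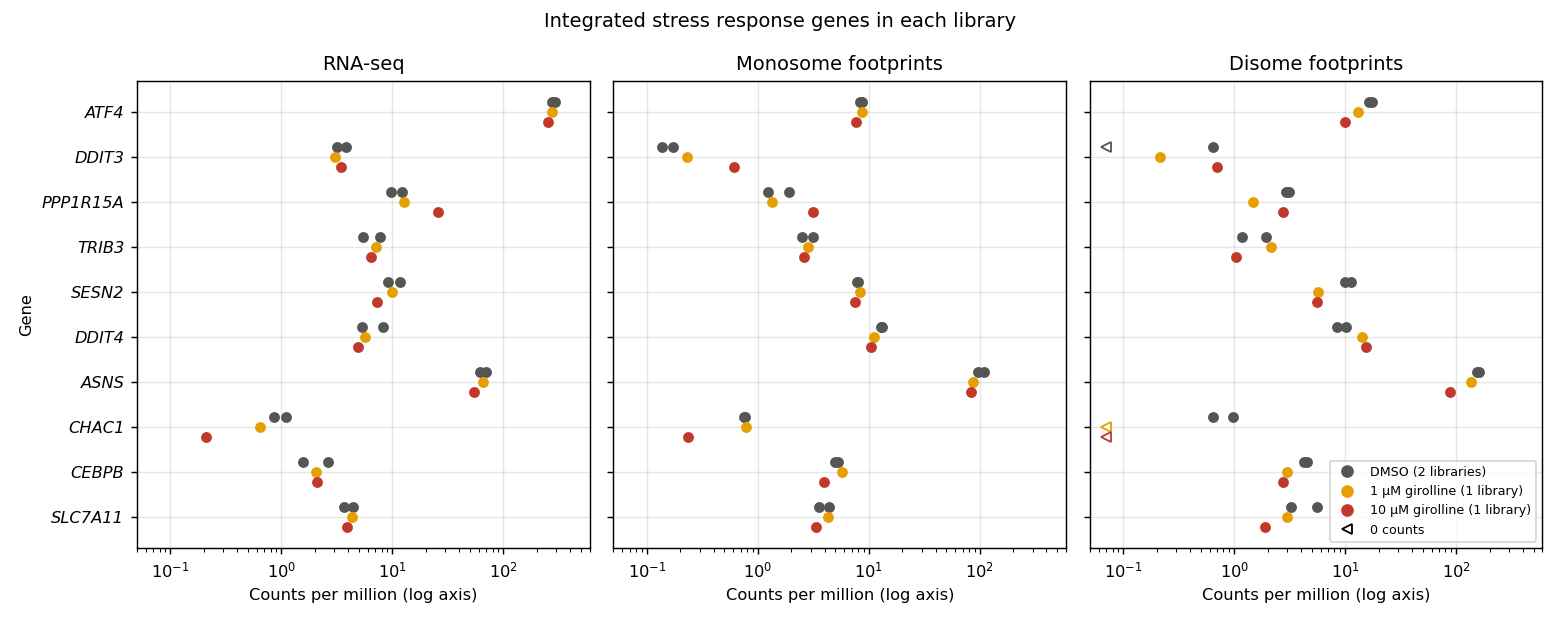
CPM (log axis) of the 10 genes in each of the 12 libraries, by kind of library and dose; each point is 1 library and triangles mark 0 counts. PPP1R15A in RNA-seq stands at 25.8 CPM at 10 µM, above the 3 other libraries, and CHAC1 stands lowest at 10 µM.

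ATF4 (ENST00000337304.2, chr22:39520559-39522686), the central activator of the response, was not called in any comparison when each kind or ratio was fitted alone. Its mRNA was at 277.7 and 289.9 CPM under DMSO, 275.6 at 1 µM and 250.5 at 10 µM. The 10 µM library lay below both DMSO libraries, and the change was -0.23 ± 0.16 (adjusted p = 0.681). Its monosome footprints were at 8.68 and 8.26 CPM under DMSO, 8.72 at 1 µM and 7.62 at 10 µM. The monosome change relative to mRNA at 10 µM was 0.00 ± 0.18, that is, the few footprints per ATF4 mRNA moved with the mRNA to within that error. Disome footprints of ATF4 were at 17.5 and 16.3 CPM under DMSO, 13.2 at 1 µM and 10.1 at 10 µM, a change of -0.64 ± 0.28 at 10 µM that missed the threshold (adjusted p = 0.065). In the fit of all 12 libraries this disome change of ATF4 passed narrowly (adjusted p = 0.0473).

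DDIT3 (ENST00000346473.7, chr12:57516588-57520517), also called CHOP, is a transcription factor linked to cell death under lasting stress. Its mRNA did not pass the test, with 3.84 and 3.15 CPM under DMSO, 3.07 at 1 µM and 3.45 at 10 µM. Its monosome counts were 4 and 6 under DMSO, 5 at 1 µM and 23 at 10 µM, or 0.137, 0.172, 0.232 and 0.604 CPM. The 10 µM library stood above the other 3, and footprints rose by 1.86 ± 0.57 (adjusted p = 0.0072). Relative to mRNA they rose by 1.92 ± 0.57 (adjusted p = 0.035), the only member called in that comparison, in which 9.13% of 47448 transcripts were called. In the fit of all 12 libraries, with monosome DMSO replicate 1 or 2 left out, the rise of 1.72 or 2.04 no longer passed (adjusted p = 0.142 and 0.115), nor did the change relative to mRNA (adjusted p = 0.196 and 0.157). Disome counts of DDIT3 were 2 and 0 under DMSO, 1 at 1 µM and 4 at 10 µM, too few for the test. The count of 0 allows up to 0.582 CPM, or 3 counts.

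CEBPB (ENST00000303004.5, chr20:50190583-50192690) encodes a C/EBP factor that pairs with ATF4. Its monosome level was 5.29 and 4.93 CPM under DMSO, 5.80 at 1 µM and 3.99 at 10 µM, the lowest of the 4. The change of -0.42 ± 0.16 at 10 µM passed the test (adjusted p = 0.037), as did that against 1 µM, -0.61 ± 0.20 (adjusted p = 0.031). In the fit of all 12 libraries neither CEBPB call passed (adjusted p = 0.267 and 0.364). Its mRNA was at 2.61 and 1.56 CPM with DMSO and 2.11 at 10 µM, inside the DMSO range.

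PPP1R15A (ENST00000200453.6, chr19:48872421-48876058), also called GADD34, was the member whose mRNA rose. Its RNA-seq counts were 398 and 411 under DMSO, 501 at 1 µM and 734 at 10 µM, which is 12.2, 9.74, 12.8 and 25.8 CPM. The 10 µM library stood apart from the other 3, with a rise of 1.19 ± 0.21 over DMSO (adjusted p = 5.3e-06) and of 1.01 ± 0.25 over 1 µM (adjusted p = 0.016). In the latter comparison 0.427% of transcripts were called. Monosome levels were 1.23 and 1.92 CPM under DMSO, 1.34 at 1 µM and 3.15 at 10 µM, again highest at 10 µM. The monosome rise was 0.91 ± 0.22 (adjusted p = 0.00053), and without DMSO replicate 1, in the fit of all 12 libraries, it was 0.65 and missed the threshold (adjusted p = 0.293). Disome levels were 2.91 and 3.11 CPM under DMSO, 1.49 at 1 µM and 2.77 at 10 µM, from counts of 9, 16, 7 and 16. The disome change of -0.03 ± 0.56 at 10 µM did not pass (adjusted p = 0.98). So few counts cannot settle whether disomes moved with monosomes. Relative to mRNA, neither monosomes (-0.29 ± 0.32) nor disomes (-1.18 ± 0.54) passed the test.

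TRIB3 (ENST00000217233.8, chr20:380760-397559), a pseudokinase that ATF4 and DDIT3 induce and that restrains both, passed no test. Its mRNA was between 5.50 and 7.67 CPM, and both dose libraries lay inside the DMSO range. Its monosome level was 2.49 and 3.15 CPM under DMSO, 2.83 at 1 µM and 2.63 at 10 µM, with the same overlap.

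SESN2 (ENST00000253063.4, chr1:28259518-28282491) and DDIT4 (ENST00000307365.4, chr10:72273924-72276036) encode stress-induced inhibitors of mTORC1, the kinase complex that promotes growth. SESN2 mRNA was at 11.8 and 9.15 CPM under DMSO, 9.94 at 1 µM and 7.21 at 10 µM, a change of -0.57 ± 0.24 that missed the threshold (adjusted p = 0.31). Its disome level was 11.3 and 9.90 CPM under DMSO, 5.74 at 1 µM and 5.55 at 10 µM. Both dose libraries lay below both DMSO libraries, and the change of -0.81 ± 0.33 at 10 µM passed narrowly (adjusted p = 0.0401), while that of -0.80 ± 0.34 at 1 µM did not (adjusted p = 0.15). In the fit of all 12 libraries the SESN2 disome change at 10 µM missed the threshold with every library kept (adjusted p = 0.0731). Monosomes of SESN2 changed by -0.13 ± 0.13 at 10 µM (adjusted p = 0.48). Without RNA-seq DMSO replicate 2, in the fit of all 12 libraries, mRNA fell by 0.73 for SESN2 and by 0.78 for DDIT4. Without replicate 1 in its place, the changes were -0.40 for SESN2 and -0.17 for DDIT4. The size of both thus depended on which DMSO library was kept. These fits keep 1 RNA-seq library per group, so they hold no spread between RNA-seq replicates.

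DDIT4 was the member whose disomes rose. Its disome counts were 26 and 52 under DMSO, 67 at 1 µM and 88 at 10 µM, or 8.41, 10.1, 14.2 and 15.3 CPM, so both dose libraries exceeded both DMSO libraries. The rise at 10 µM was 0.80 ± 0.28 (adjusted p = 0.016), and that of 0.66 ± 0.30 at 1 µM missed the threshold (adjusted p = 0.17). Its monosome level went the other way, from 13.2 and 12.9 CPM with DMSO to 11.1 at 1 µM and 10.5 at 10 µM, a change of -0.38 ± 0.11 at 10 µM (adjusted p = 0.0046) that missed the threshold in the fit of all 12 libraries (adjusted p = 0.194). The mRNA was at 8.29 and 5.33 CPM under DMSO, 5.70 at 1 µM and 4.93 at 10 µM, and did not pass (-0.50 ± 0.26, adjusted p = 0.49).

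Disomes of DDIT4 therefore rose at 10 µM relative to monosomes, by 1.19 ± 0.28 (adjusted p = 0.00072), and relative to mRNA, by 1.34 ± 0.39 (adjusted p = 0.0052). No other member was called in either comparison, in which 18.6% of 41699 and 20.9% of 55625 transcripts were called. The ratio of disome to monosome RPKM of DDIT4 was 0.678 under DMSO, 1.23 at 1 µM and 1.39 at 10 µM. Without disome DMSO replicate 1 or 2, in the fit of all 12 libraries, the call relative to monosomes missed the threshold (adjusted p = 0.0694 and 0.0607), as did the disome rise itself (adjusted p = 0.136 and 0.103). At 1 µM DDIT4 rose by 0.96 ± 0.30 relative to monosomes, which edgeR did not call (adjusted p = 0.056). At 1 µM edgeR called no member in any ratio, beside 0.00211% of transcripts for monosomes relative to mRNA, 1.86% for disomes relative to mRNA and 3.54% for disomes relative to monosomes, and DESeq2 called none. Unadjusted p was under 0.05 for DDIT4 in disomes relative to mRNA and for SESN2, DDIT4 and CHAC1 in disomes relative to monosomes.

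ASNS (ENST00000394308.8, chr7:97851677-97928441), the enzyme that makes asparagine, had the most footprints of the 10 genes. Its mRNA was at 61.4 and 70.2 CPM under DMSO, 66.1 at 1 µM and 54.8 at 10 µM, and the change of -0.31 ± 0.18 did not pass (adjusted p = 0.58). Its monosome level was 110.5 and 95.6 CPM under DMSO, 86.2 at 1 µM and 83.3 at 10 µM, below both DMSO libraries at each dose. The changes of -0.26 ± 0.07 at 1 µM (adjusted p = 0.034) and -0.37 ± 0.07 at 10 µM (adjusted p = 4.9e-06) passed. At 1 µM ASNS was the only member called, beside 1.73% of transcripts. That call passed in 2 of 8 refits, with values from -0.36 to -0.15, and in the fit of all 12 libraries neither the 1 µM nor the 10 µM call passed (adjusted p = 1 and 0.051). Its disome level was 161.7 and 155.5 CPM under DMSO, 136.7 at 1 µM and 88.1 at 10 µM. The disome change of -0.75 ± 0.18 at 10 µM passed (adjusted p = 0.00025), also against 1 µM, -0.60 ± 0.20 (adjusted p = 0.034). The ratio of disome to monosome RPKM of ASNS was 1.51 under DMSO, 1.56 at 1 µM and 1.04 at 10 µM. At 10 µM edgeR did not call ASNS in disomes relative to monosomes, though its unadjusted p was under 0.05.

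SLC7A11 (ENST00000280612.9, chr4:138164097-138242349), the cystine importer that feeds glutathione synthesis, was called in no comparison. Its mRNA was between 3.65 and 4.39 CPM in all 4 libraries. Its disome level was 3.23 and 5.63 CPM under DMSO, 2.98 at 1 µM and 1.91 at 10 µM, and the change of -1.18 ± 0.52 at 10 µM missed the threshold (adjusted p = 0.063). Without disome DMSO replicate 1, in the fit of all 12 libraries, it was -1.43. Without replicate 2 the SLC7A11 disome change was -0.685, so its size depended on which DMSO library was kept.

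CHAC1 (ENST00000617768.5, chr15:40953471-40956512), which degrades glutathione, was the member whose mRNA fell. Its RNA-seq counts were 36 and 36 under DMSO, 25 at 1 µM and 6 at 10 µM, or 1.11, 0.853, 0.639 and 0.211 CPM. The 10 µM library was far below the other 3, a change of -2.23 ± 0.63 (adjusted p = 0.041). Monosome counts were 22 and 27 under DMSO, 17 at 1 µM and 9 at 10 µM, and the change of -1.74 ± 0.49 passed too (adjusted p = 0.0029). In the fit of all 12 libraries it passed with every library kept (adjusted p = 0.0234), and not without monosome DMSO replicate 1 or 2 (adjusted p = 0.124 and 0.174). Relative to mRNA the monosome change was 0.48 ± 0.83 and did not pass. Disome counts were 2 and 5 with DMSO and 0 at both doses, where 0 allows up to 0.638 CPM at 1 µM and 0.52 at 10 µM. CHAC1 did not pass the filter on low counts in disomes, and its disome change relative to monosomes at 1 µM missed the threshold (adjusted p = 0.296).

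Counted together, monosome footprints at 10 µM rose for DDIT3 and PPP1R15A and fell for DDIT4, ASNS, CHAC1 and CEBPB, 6 of 10 members beside 32.2% of 55409 transcripts called. Higher calls made up 16.5% and lower calls 15.7% of all transcripts. Disome footprints at 10 µM rose for DDIT4 and fell for SESN2 and ASNS, 3 of the 8 members that passed the filter on low counts, beside 35.7% of 34606 transcripts (20.8% higher, 14.9% lower). At 1 µM edgeR called none of these 8 in disomes, with SESN2 and DDIT4 under an unadjusted p of 0.05, none called by DESeq2 and 7.08% of all transcripts called by edgeR. Against 1 µM, monosomes at 10 µM rose for PPP1R15A (1.16 ± 0.30) and fell for CHAC1 (-1.79 ± 0.60) and CEBPB, beside 12% called, and ASNS was the only member called in disomes, beside 12.1%. Of the 6 monosome calls against DMSO, DESeq2 called none, with an adjusted p for 3 of the 6 and 6.36% of all transcripts called, and 3 of the 6 (DDIT3, PPP1R15A and CHAC1) were called in the fit of all 12 libraries. In that fit, without DMSO replicate 1 none of the 6 passed, and without DMSO replicate 2 PPP1R15A alone did, while the share of all transcripts called went from 12.7% to 4.7% and 3.78%. None of the 3 monosome calls against 1 µM passed in the fit of all 12 libraries. Since the doses share the DMSO libraries, the comparisons are not independent of each other.

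**Figure D3:**
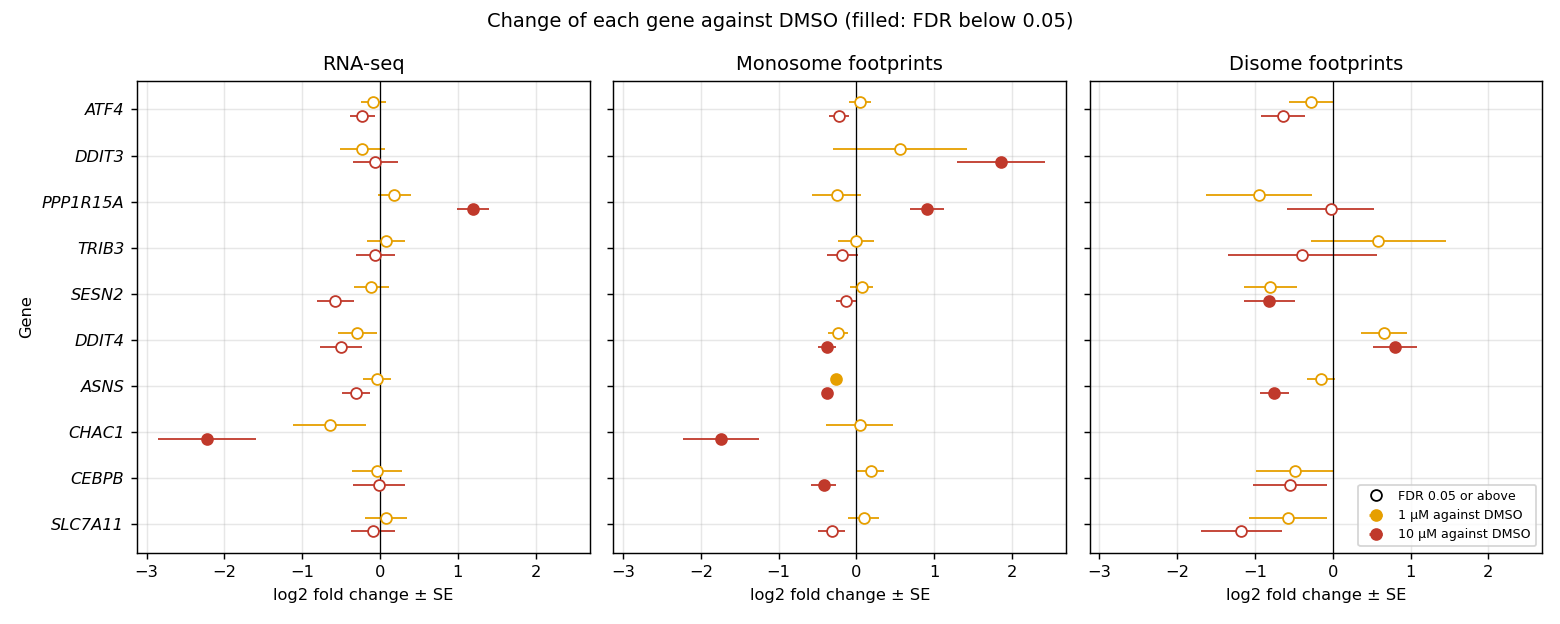
Log2 fold change at 1 and 10 µM against DMSO for the 10 genes in RNA-seq, monosome and disome libraries; points are edgeR estimates, bars are ± 1 SE and filled points passed the threshold. PPP1R15A and DDIT3 lie to the right in monosomes at 10 µM, CHAC1 lies to the left, and DDIT4 is the member with a called rise in disomes.

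The fall in ASNS disomes was not even over its neighbouring entries in the tables. The ASNS transcript sits in a block of 14 coding entries of 10 lengths, chosen for description after their values were seen, and the files name no gene and give no positions for them. In disome libraries the 63-codon entry held 25 and 47 counts under DMSO, then 80 at the lower and 144 at the higher dose. That is 5.0% and 5.87% of the ASNS count with DMSO, 12.4% at 1 µM (Wilson 95% interval 10.1 to 15.2) and 28.3% at 10 µM (24.6 to 32.4). This entry rose by 1.62 ± 0.27 at 10 µM (edgeR adjusted p = 2.67e-08), and by 1.03 ± 0.29 at 1 µM (adjusted p = 0.0118). Entries of 119, 162 and 215 codons rose by 1.33, 1.00 and 0.77 at 10 µM, and the 402-codon entry changed by 0.13 ± 0.20 (adjusted p = 0.643). In RNA-seq the 63-codon entry changed by -1.055 ± 0.325 at 10 µM and missed the threshold (edgeR adjusted p = 0.0778). Its RNA-seq share was 5.05% and 5.64% under DMSO, 5.83% at 1 µM and 3.21% at 10 µM. The monosome entry of that length changed by -0.44 ± 0.119 at 10 µM (edgeR adjusted p = 0.00202). Its share was 9.77% and 12.5% under DMSO, and 11% at 1 µM and 10.6% at 10 µM lay inside that range. Entries of the block may count the same reads, so these changes are not separate results.

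The 479-codon entry of the block moved the other way. Its disome level was 150.0 and 145.0 CPM under DMSO, 113.0 at 1 µM and 53.9 at 10 µM, a change of -1.35 ± 0.19 at 10 µM (edgeR adjusted p = 1.04e-10). The ASNS transcript is 83 codons longer than this entry, which is not shown by position to lie inside it. Its disome count was higher than that of the entry by 37 and 56 under DMSO, by 110 at the lower and by 197 at the higher dose. As a share of the ASNS count that was 7.4% (5.42 to 10.0) and 6.99% (5.42 to 8.97) under DMSO, 17.1% (14.4 to 20.2) at 1 µM and 38.8% (34.6 to 43.1) at 10 µM. The intervals at each dose lie above both DMSO intervals. They cover counting error only. In monosome libraries the difference from the 479-codon entry was 12.6% and 14.8% under DMSO, 14.4% at 1 µM and 14.3% at 10 µM. In RNA-seq it was 11.2%, 11.1%, 10.7% and 8.79%, so these shares showed no such rise. The monosome entry was matched by length alone, so the 83 codons may not be the same stretch. The monosome share of the 215-codon entry was 32.7% (31.1 to 34.4) and 33.6% (32.0 to 35.2) under DMSO, 35.9% (33.7 to 38.1) at 1 µM and 39.8% (38.1 to 41.5) at 10 µM, where its interval lay above both DMSO intervals.

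**Figure D4:**
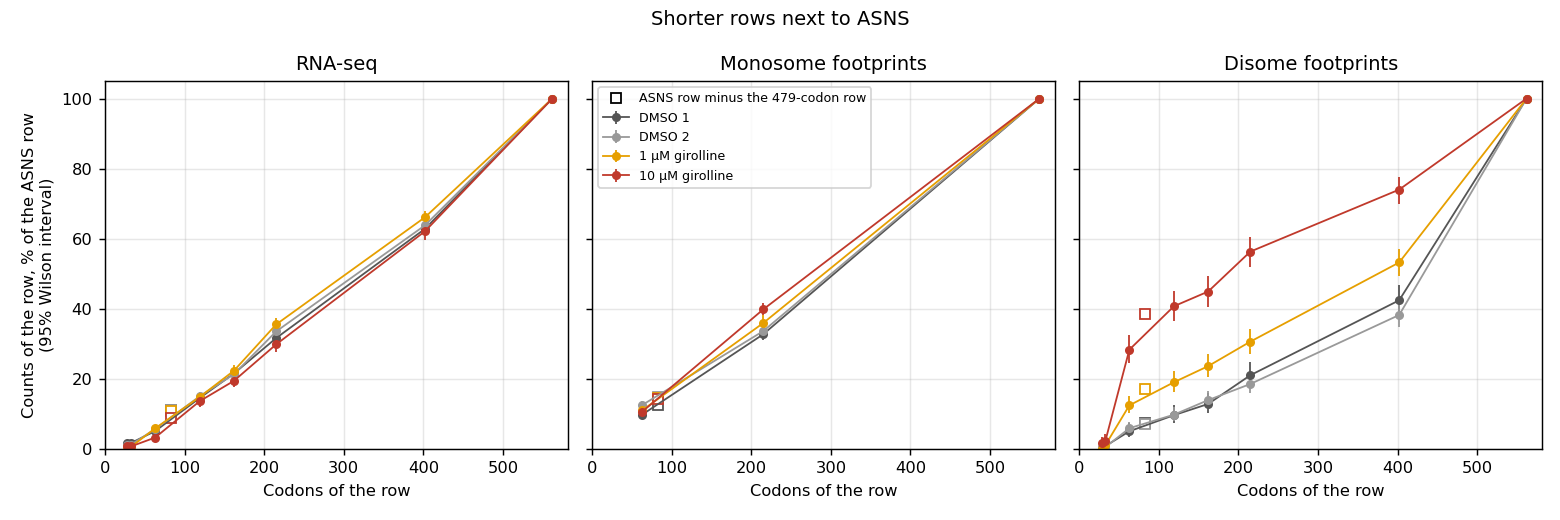
Counts of shorter entries in the ASNS block as a percent of the count of the ASNS transcript, by library, against their length in codons; points are libraries with 95% Wilson intervals, and squares are the 83-codon difference. In disome libraries the share of entries of 63 to 402 codons is higher at each dose than with DMSO, reaching 28.3% for the 63-codon entry at 10 µM, against 5.0% and 5.87% with DMSO.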

How the data were processed

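The authors deposited 1 table of raw read counts per transcript for each library, with a length column and no normalization. Per the submitters' processing notes, the build was hg38 and the tools included STAR 2.7.0a and CASAVA 1.8, and how multiply matching reads were treated is not given in the sources used here. Total counts set the precision, which is lowest in disome libraries. Members were found by transcript identifier in the monosome tables and paired with the other tables by coding length in file order, after adding 10 codons in monosome and 20 in RNA-seq tables. This paired 76301 transcripts, 90.8% of them alike from the other end of the tables. TRIB3 was paired out of order with the single unpaired entry of its length near the partners of its neighbours. CHAC1 and ASNS had no same partner from the other end. Identical rows were merged.

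Tests used edgeR 4.0.16 under R 4.3.3 (TMM, filterByExpr, FDR 0.05), with 1 residual degree of freedom per kind, and ratios between kinds as an interaction over 8 libraries. DESeq2 1.42.0, other filters, 1 transcript per block of 10 entries, a fit of all 12 libraries, left-out DMSO libraries and a replicate block were alternatives. An adjusted p that DESeq2 left empty was kept empty. Every member is named, whatever its values. Members and lists were chosen with earlier results of these data known. A wider pathway list and cell line markers were not analysed here, since no table used here pairs gene names with the transcript identifiers. The code was tested on simulated data. Of simulated 2-fold changes in well-counted transcripts at 10 µM, it recovered 53% in RNA-seq, 96.5% in monosomes and 71.5% in disomes. A change that did not pass may therefore still be present.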

Additional observations from a re-analysis of the deposited data

Results flagged for a closer look

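In 3 cases a member's change at 10 µM differed between kinds of library by the interaction test. DDIT3 monosomes rose relative to mRNA by 1.92 on the log2 scale. DDIT4 disomes rose by 1.34 relative to mRNA and by 1.19 relative to monosomes. The DDIT3 value rests on monosome counts of 4 and 6 with DMSO and 23 at 10 µM.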

How the results depend on the processing

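Of 20 called member values, 150 refits kept the sign in all cases, and 98 of these also passed the threshold. All refits reuse the same single library per dose, so a kept sign says little. DESeq2 gave an adjusted p for 12 of the 20 and called 2, PPP1R15A mRNA and ASNS disomes at 10 µM. By DESeq2, 1 member instead of 2 was called in RNA-seq at 10 µM, 0 instead of 1 against 1 µM, 0 in each monosome comparison (6, 1 and 3 by edgeR), 1 instead of 3 in disomes at 10 µM, 0 instead of 1 against 1 µM, and 0 instead of 1 for each ratio at 10 µM. DESeq2 also called fewer of all transcripts at 10 µM, 0.4% in RNA-seq, 6.36% in monosomes and 7.55% in disomes. Against 1 µM it called 0.151% in RNA-seq, 1.29% in monosomes and 1.29% in disomes, and in monosomes at 1 µM 0.467%. For the ratios at 10 µM it called 3.57% for monosomes relative to RNA and 11% for disomes relative to RNA. For disomes relative to monosomes it called 6.38%. With a mean of at least 10 CPM, the calls were 1 and 0 in RNA-seq, 2, 0 and 0 in monosomes, 0 in disomes against 1 µM, 0 for monosomes and for disomes relative to RNA and 2 for disomes relative to monosomes. Those 2 were 1 higher and 1 lower. This filter leaves 2 or 3 members. Shares of all transcripts called were 1.28% and 0.274% in RNA-seq, 52.3%, 6.42% and 25.3% in monosomes, and 20.2% in disomes against 1 µM. At 10 µM they were 21.0% for monosomes relative to RNA, 43.8% for disomes relative to RNA and 43.6% for disomes relative to monosomes. With 1 transcript per block, 0 were called in monosomes at 1 µM and 0 in disomes against 1 µM, beside 2.5% and 14% of all transcripts. In the fit of all 12 libraries, the monosome calls were 3, 0 and 0, beside 12.7%, 0.041% and 1.65% of all transcripts. Without a filter, 1 member was called for disomes relative to monosomes at 1 µM, beside 3.18% of all transcripts, where edgeR with the filter called 0. The cause was not tested.

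Of 977 refits of 122 uncalled values, 41 changed sign and 11 passed. With a DMSO library left out, in the fit of all 12 libraries, where the lone DMSO library is assumed to vary like the other groups, the calls ran from 3 to 4 in RNA-seq at 10 µM, 0 to 1 in monosomes at 10 µM and 0 to 0 at 1 µM and against 1 µM. In disomes and in each ratio the number of members called also depended on the library left out. The share of all transcripts called there changed as well. The share of all transcripts called at 10 µM was then 10.8% and 10.7% in RNA-seq, against 1.11% with each kind fitted alone, and 4.7% and 3.78% in monosomes, against 32.2%. Without RNA-seq DMSO replicate 1, ASNS mRNA fell by 0.41 at 10 µM, and without replicate 2 it fell by 0.19. With a replicate block, each ratio at 10 µM kept 1 member called and 0 at 1 µM. The shares of all transcripts at 10 µM were 10.2% for monosomes relative to RNA and 24.6% for disomes relative to RNA. For disomes relative to monosomes the share was 16.1%. SESN2 disomes passed in 2 of 7 refits.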
